A study of Mus musculus with 8 samples.

Results

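The 9 genes described here are grouped as B cell surface antigens and co-receptors: Ms4a1, Cd22, Cd72, Cd79a, Cd37, Cd24a, Cd53, Cd81 and Fcrla, whose product is kept inside the cell. They were chosen by name with earlier results of these data known, so their counts beside those of all probe sets are description only. Every probe set that the array's annotation gives to one of them alone was taken. This made 17 of the 45037 probe sets that are not controls, and 9 of the 18193 genes named by a single symbol. All 17 passed the filter on dim probe sets, which left 27022 probe sets to be tested.

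RNA was measured on 8 mouse Affymetrix expression arrays in 4 groups of 2. All groups carried a GFP reporter for AID (activation-induced cytidine deaminase, which deaminates antibody gene DNA to begin class switch recombination and somatic hypermutation), so that GFP-positive cells are those in which the reporter was on. The groups were GFP-positive and GFP-negative BCR-ABL1 cells from bone marrow, and GFP-positive and GFP-negative splenic B cells that had been stimulated with LPS and IL-4, a mixture that drives B cells to divide and switch class. BCR-ABL1 is the tyrosine kinase fusion of Philadelphia-positive leukaemia. The sources used here do not give how it was introduced, the age and strain of the mice, or how the cells were purified. Nor do the labels tie the replicates of a group to separate animals or cultures, so p-values measure only the spread between these arrays, which may be technical.

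The B cell antigen receptor is a membrane immunoglobulin held by a heterodimer of CD79a (Igα, from Cd79a) and CD79b, whose cytoplasmic tails start signalling. Co-receptors set the strength of that signal: CD22, a lectin that binds sialic acid, and CD72, a C-type lectin-like protein, carry inhibitory tails that recruit the phosphatase SHP-1, while CD81 is a tetraspanin that organises other membrane proteins. CD20 (Ms4a1) is a membrane protein of mature B cells that is lost in plasma cells, CD37 and CD53 are tetraspanins of leukocytes, CD24 (Cd24a) is a small glycosylphosphatidylinositol-anchored antigen that is high on immature B cells, and FCRLA is an Fc receptor-like protein kept inside the B cell.

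Promoter windows of 300 bases, from 250 before to 50 from the annotated start on, were held by RefSeq (build GRCm38.p6) for 7 of the 9 genes, Cd22, Cd72, Cd79a, Cd37, Cd53, Cd81 and Fcrla. The windows of Cd22 and Cd72 are shown because these genes were lower in GFP-positive BCR-ABL1 cells, and those of Cd37 and Cd53 because they share a motif with Cd72. Each is given 5′ to 3′ on the gene's own strand and covers the start of its first exon, and capitals mark the reverse complement of GAGGAAGT, letters bound by the Ets factor PU.1.
Cd22, chr7:30878979-30879278, minus strand: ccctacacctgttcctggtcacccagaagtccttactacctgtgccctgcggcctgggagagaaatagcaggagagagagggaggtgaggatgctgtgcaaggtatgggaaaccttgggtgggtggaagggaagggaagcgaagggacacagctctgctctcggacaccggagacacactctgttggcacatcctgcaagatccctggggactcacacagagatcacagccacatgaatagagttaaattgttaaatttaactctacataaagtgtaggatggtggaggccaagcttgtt
Cd72, chr4:43454577-43454876, minus strand: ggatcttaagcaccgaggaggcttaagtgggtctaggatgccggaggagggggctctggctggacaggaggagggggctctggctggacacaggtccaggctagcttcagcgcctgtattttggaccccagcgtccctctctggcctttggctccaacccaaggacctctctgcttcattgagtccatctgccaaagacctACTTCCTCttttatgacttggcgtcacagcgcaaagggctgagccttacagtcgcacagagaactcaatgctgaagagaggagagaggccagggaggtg
Cd37, chr7:45238790-45239089, minus strand: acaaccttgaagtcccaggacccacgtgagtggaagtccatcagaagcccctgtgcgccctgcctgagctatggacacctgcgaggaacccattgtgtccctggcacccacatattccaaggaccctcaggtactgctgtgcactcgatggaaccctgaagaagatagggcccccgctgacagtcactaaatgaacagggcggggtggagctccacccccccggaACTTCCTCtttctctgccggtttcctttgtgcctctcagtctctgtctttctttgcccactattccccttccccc
Cd53, chr3:106790100-106790399, minus strand: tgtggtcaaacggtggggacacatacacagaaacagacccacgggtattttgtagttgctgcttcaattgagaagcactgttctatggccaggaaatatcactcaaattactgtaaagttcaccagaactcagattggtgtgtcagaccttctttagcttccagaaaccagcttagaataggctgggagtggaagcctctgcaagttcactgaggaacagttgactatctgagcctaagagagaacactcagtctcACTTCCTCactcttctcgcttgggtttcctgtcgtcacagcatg

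The letters GAGGAAGT, searched on both strands, occurred in the windows of 3 of the 7 genes (Cd53, Cd72 and Cd37) and in 3.2% of 32851 promoters of that length. The match began at position -49 in Cd72, -25 in Cd37 and 7 in Cd53, counting the start as 1 with no position 0. CAGGTG, an E box of E2A, occurred in 4 of the 7 windows (Fcrla, Cd79a, Cd22 and Cd37) and in 20.2% of all promoters, and CCCNNGGG, the core of EBF1 sites, in 3 of 7 (Cd53, Cd22 and Cd81) and 13.7%. The octamer ATGCAAAT occurred in 0 of the 7 windows and in 1.74% of all promoters. These motifs were kept from a wider set that was searched, and the matches given did not overlap each other. They describe the windows and are no evidence of binding.

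Signals below are the deposited intensities after quantile normalization, which gives all arrays the same distribution. Differences are log2 values with their standard error from the limma fit of all 8 arrays, signals under 32 being set to 32 first, and a probe set was called at an adjusted p under 0.05 (Benjamini-Hochberg over all 27022). Replicate arrays correlated at 0.985 to 0.998, and before normalization the trimmed mean intensity ran from 479 to 500 on the spleen GFP-negative arrays and from 591 to 596 on the other arrays. With 2 arrays against 2, an exact two-sided permutation test can give no p under 0.333, so calls rest on the model's pooled spread. The comparisons share arrays, so their values for a gene are not independent of each other.

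**Figure D1:**
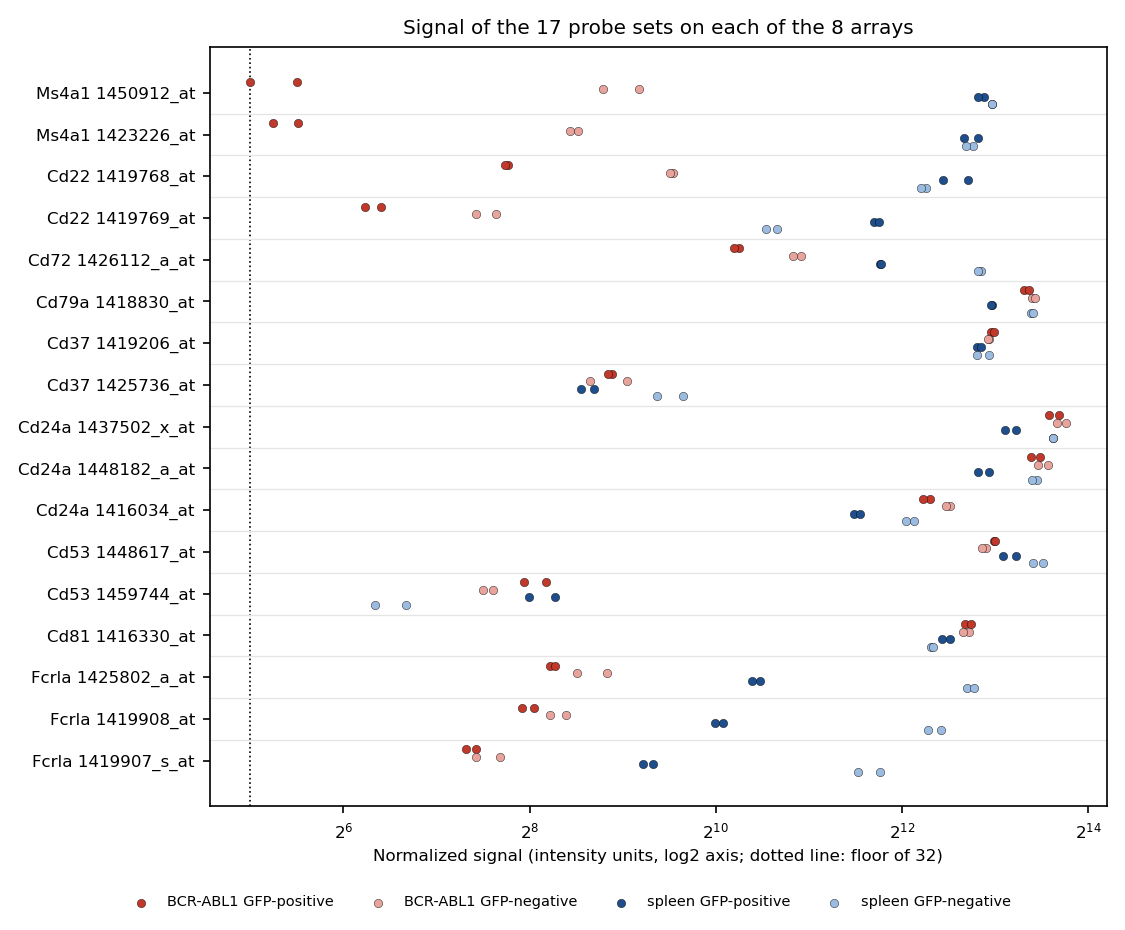
Normalized signal (intensity units, log2 axis) of the 17 probe sets, with 1 point for each of the 8 arrays and the dotted line at the floor of 32. The Ms4a1 and Cd22 points of the BCR-ABL1 groups lie far left of the spleen points, while the 4 groups of Cd79a, Cd81 and Cd37 1419206_at lie close together.

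In BCR-ABL1 cells, GFP-positive arrays had less Ms4a1, Cd22 and Cd72 transcript than GFP-negative arrays, and the 12 probe sets of the other 6 genes were not called. Of the 17 probe sets, 5 were called, all of them lower and from these 3 genes, against 2.8% of all tested probe sets called in either direction, 1.57% called higher and 1.23% called lower. Without adjustment, limma gave p under 0.05 for 1 probe set that was higher and 9 that were lower. Of all 27022 tested probe sets, 3117 had such a p in either direction. The median difference of the 17 was -0.18, beside -0.0023 for all tested probe sets. In bulk RNA, fewer cells that express a gene and less RNA per cell cannot be told apart.

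Ms4a1 has a pair of probe sets, and these held the lowest and the second lowest differences of all 27022 in this comparison. Ms4a1 1423226_at had signals of 45.6 and 38.0 in GFP-positive BCR-ABL1 cells, against 346 and 367 in GFP-negative ones. Its difference was -3.10 ± 0.11 (limma, adjusted p = 2.24e-05). Ms4a1 1450912_at had 30.0 and 45.4 in GFP-positive BCR-ABL1 cells, against 443 and 576 in GFP-negative ones, and differed by -3.73 ± 0.18 (adjusted p = 6.06e-05). The groups were far apart on both probe sets, and all 4 GFP-positive readings lay under the filter's mean signal of 51.0, with 1 of them at the floor. The sizes therefore depend on the floor. With a floor of 64, which is above all 4 readings, they were -2.48 and -2.98. These are lower bounds on the sizes, and both were called against a group held at the floor.

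Cd22 was the next lowest of the genes. Cd22 1419768_at had 218 and 212 in GFP-positive BCR-ABL1 cells, against 744 and 728 in GFP-negative ones, a 3.42-fold lower level (-1.77 ± 0.094, adjusted p = 9.55e-05). Cd22 1419769_at had 75.0 and 84.4, against 172 and 199, and differed by -1.22 ± 0.12 (adjusted p = 0.00163). In a fit of the 4 BCR-ABL1 arrays alone, the call on 1419769_at was lost (adjusted p = 0.0642).

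Cd72, whose product is the receptor for CD100 (Sema4d), changed less. Its only probe set, 1426112_a_at, had 1220.0 and 1174 in GFP-positive BCR-ABL1 cells, against 1930.2 and 1813 in GFP-negative ones. The level was 1.56-fold lower (-0.64 ± 0.054, adjusted p = 0.000757), and it ranked 322 from the lowest of the tested probe sets, beside ranks of 48 and 103 for Cd22.

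Fcrla and Cd24a leaned the same way without a call. Fcrla 1425802_a_at had 299 and 309 in GFP-positive BCR-ABL1 cells, against 364 and 456 in GFP-negative ones (-0.42 ± 0.11, adjusted p = 0.122). The difference was -0.32 ± 0.10 on Fcrla 1419908_at (adjusted p = 0.208) and -0.18 ± 0.13 on 1419907_s_at, where the groups overlapped (adjusted p = 0.794). Cd24a 1416034_at had 5060.0 and 4797, against 5841 and 5698, which do not overlap, and differed by -0.23 ± 0.051 (adjusted p = 0.0686). On the other Cd24a probe sets the groups overlapped and the differences were -0.080 ± 0.052 and -0.079 ± 0.056.

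The antigen receptor subunit and the tetraspanin Cd81 differed little between these arrays. Cd79a had 10188 and 10521 in GFP-positive BCR-ABL1 cells, against 10780.5 and 10997 in GFP-negative ones, a difference of -0.073 with a 95% interval of -0.14 to -0.0049 before adjustment (adjusted p = 0.38). Cd81 had 6536 and 6826, against 6733 and 6437, with an interval of -0.083 to 0.12. Neither gene was called, and the intervals are narrow but cover only the spread between these arrays.

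Cd37 1419206_at had 7925 and 8099 in GFP-positive BCR-ABL1 cells, against 7847 and 7766 in GFP-negative ones, with an interval of -0.068 to 0.14. The dimmer Cd37 1425736_at was less precise, with 473 and 459, against 527 and 400.5, and an interval of -0.35 to 0.39. Cd53 1448617_at had 8109.9 and 8166, against 7644 and 7420.3 (0.11 ± 0.052, adjusted p = 0.497). Cd53 1459744_at had 289 and 245, against 181 and 194 (0.50 ± 0.17, adjusted p = 0.26), with the GFP-positive arrays above the GFP-negative ones but no call.

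**Figure D2:**
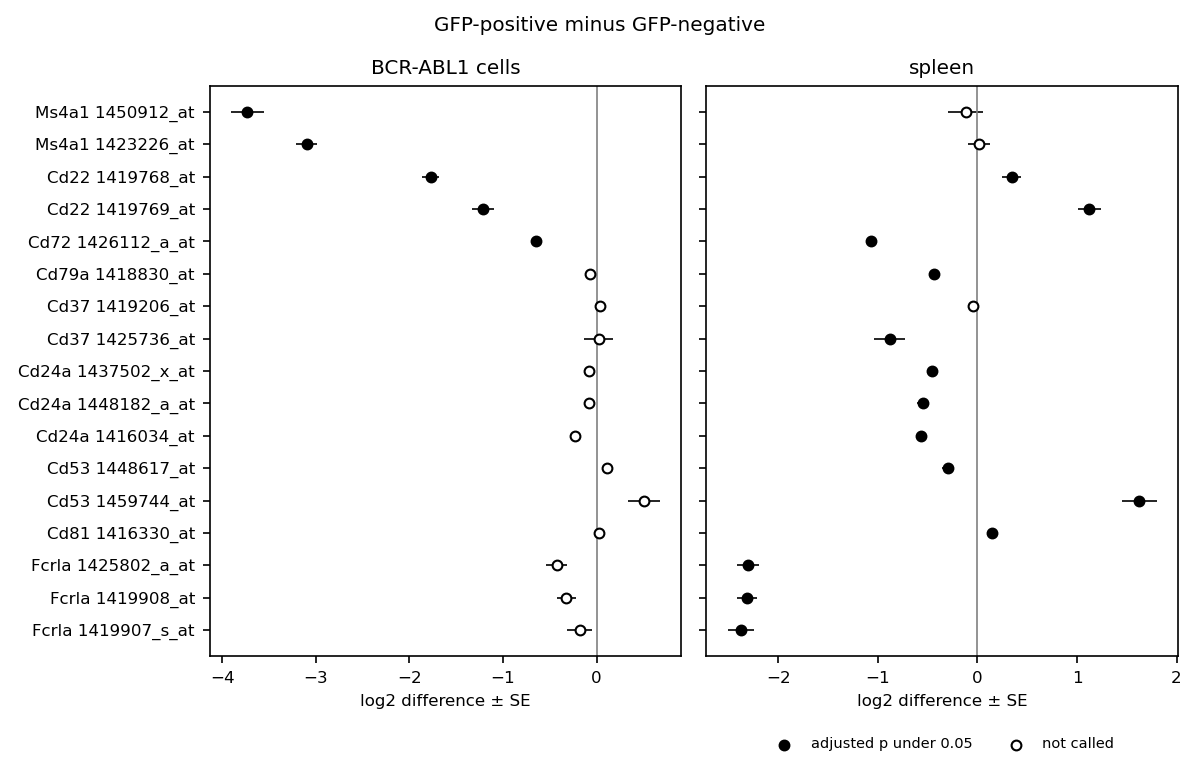
Difference between GFP-positive and GFP-negative arrays (log2, ± standard error, 2 arrays a group) of the 17 probe sets in BCR-ABL1 cells and in spleen, on axes of different range. Filled points have an adjusted p under 0.05: 5 in BCR-ABL1 cells, all left of 0, and 14 in spleen, on both sides.

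The genes that work with these antigens were read from 5 lists, each gene by its brightest tested probe set. Of all 12223 genes so read, 2.31% were called higher and 1.78% lower in GFP-positive BCR-ABL1 cells. In the list of the B cell receptor complex and its signalling, 15 of 18 genes were tested and 0 were called by limma. At an unadjusted p under 0.05, 2 were higher and 1 lower, beside 3117 of all 27022 probe sets in either direction. Cd79b, the partner of Cd79a, differed by 0.0023 ± 0.036. Of 17 other tetraspanins tested, 0 were called, with 3 higher and 2 lower before adjustment.

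Among the other inhibitory and Fc receptors of B cells, 1 of 8 tested genes was called. This was Siglecg, a sialic acid-binding inhibitory receptor related to Cd22, which had a mean signal of 1980 in GFP-positive BCR-ABL1 cells, against 2729 in GFP-negative ones (-0.46 ± 0.067, adjusted p = 0.0109). Of the relatives of Ms4a1, 3 of 7 tested genes were called, and they did not go one way. Ms4a6c was lower (-1.25 ± 0.095), while Ms4a4b (1.13 ± 0.13) and Ms4a4c (0.75 ± 0.15) were higher, and the highest mean signal of the 3 in either group was 275.

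In the list of ligands and partners, 3 of 10 tested genes were higher and 2 lower in GFP-positive BCR-ABL1 cells. Siglecg stands in this list as well as in that of the inhibitory receptors, and is 1 of the 2 lower genes. Ifitm1 and Ifitm3 are interferon-induced membrane proteins, and human IFITM1 associates with CD81. Ifitm1 averaged 6825 in GFP-positive cells, against 3237 in GFP-negative ones (1.08 ± 0.12, adjusted p = 0.00356), and Ifitm3 differed by 1.12 ± 0.053. Cd2, an adhesion molecule of lymphocytes, was lower (-0.93 ± 0.063).

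**Figure D3:**
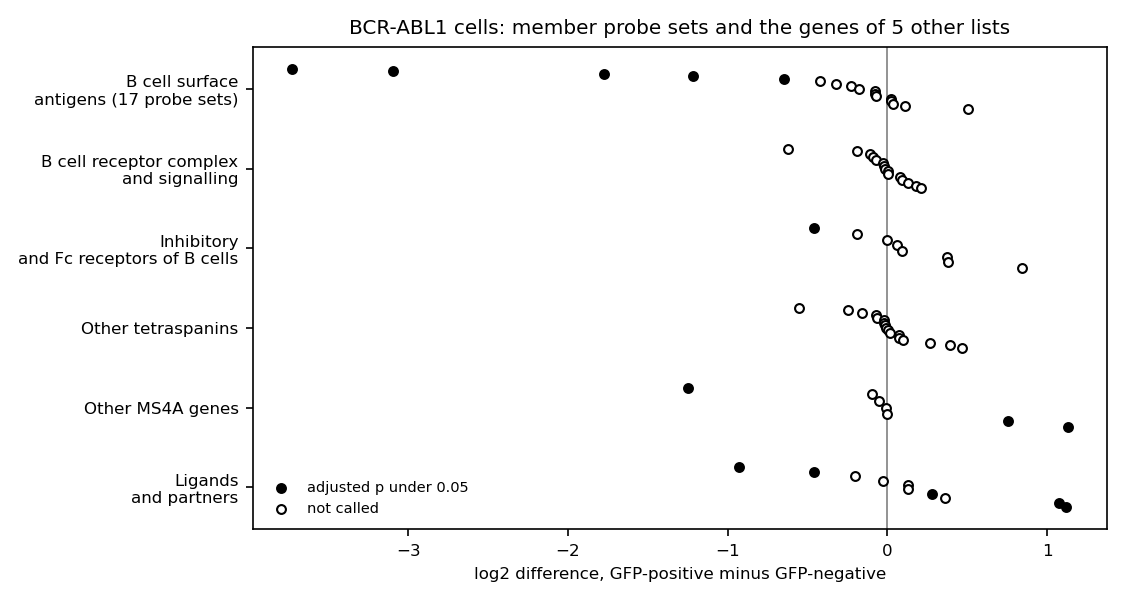
Difference between GFP-positive and GFP-negative BCR-ABL1 cells (log2) of the 17 probe sets and of the tested genes of 5 other lists, 1 point each, with filled points at an adjusted p under 0.05. The Ms4a1 and Cd22 points lie at the far left, beyond every point of the other lists except Ms4a6c, which lies just left of the second Cd22 point.

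Marker sums of myeloid and of T and NK cells were close between the BCR-ABL1 groups, with calls among T and NK cell markers. Of 10 myeloid markers, 2 lay above the filter value in both groups, and the summed signal was 702 to 713 in GFP-positive arrays and 618 to 680 in GFP-negative ones. T and NK cell markers summed to 995 to 1060 in GFP-positive arrays and 969 to 1059 in GFP-negative ones, with Cd3g at the floor in both groups and Nkg7 and Gzma at it in GFP-negative arrays alone. Of these 9 markers, 2 were called higher in GFP-positive BCR-ABL1 cells, Klrd1 (0.78 ± 0.14, adjusted p = 0.0315) and Gzma (0.72 ± 0.15, adjusted p = 0.0468). All 7 B lineage markers on the array were above the filter in both groups, at sums of 25151 to 25924 and of 25644 to 25681 in GFP-positive and GFP-negative arrays. Of these 7, 1 was called lower in GFP-positive cells and 0 higher, beside 1.78% of all genes called lower. All 7 pre-B markers were above the filter in both groups too, at sums of 45281 to 46008 in GFP-positive arrays and 41628 to 42232 in GFP-negative ones. Of these, 2 of the 7 were called higher in GFP-positive cells. Plasma cell markers summed to 6195 to 6664 in GFP-positive arrays and 5675 to 5877 in GFP-negative ones. Of these 5 markers, 1 was called higher and 1 lower in GFP-positive cells. Dendritic markers summed to 258 to 267 in GFP-positive arrays and 187 to 223 in GFP-negative ones, with 0 of 3 tested genes called. Erythroid and megakaryocyte markers summed to 226 to 232 and to 245 to 246 in the same order, with 0 of 2 called. The part of these shifts in the Ms4a1, Cd22 and Cd72 differences was not tested.

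In spleen the same genes showed another pattern. GFP-positive arrays had much less Fcrla and less Cd72, Cd79a and Cd24a than GFP-negative arrays, more Cd22 and slightly more Cd81, and a level of Ms4a1 that was not called. Of the 17 probe sets, 14 were called, 4 higher and 10 lower, beside 44.9% of all tested probe sets called higher, 33.3% called lower and 78.2% in either direction. A call in spleen is therefore common and says little by itself. The median difference of the 17 was -0.44, beside 0.17 for all tested probe sets. That median of all tested probe sets was 0.35 on the deposited scale and 0.51 with the medians of all arrays made equal. Spleen values are therefore given beside it, but whether the same shift holds for bright and dim probe sets was not tested.

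The spleen GFP-negative arrays also held transcripts of other cell types. Of 10 myeloid markers, 2 lay above the filter value in GFP-positive spleen arrays and 9 in GFP-negative ones, with summed signals of 376 to 400 and of 74810 to 77057 in the same order, and Csf1r, Camp, Ngp, Elane and Itgam at the floor in the GFP-positive arrays. Of 9 T and NK cell markers, 4 were above it in GFP-positive arrays and all 9 in GFP-negative ones, with sums of 1043 to 1068 and of 15280 to 16884. The 7 B lineage markers were above it in both groups, with sums of 28223 to 28831 in GFP-positive arrays and 34443 to 34982 in GFP-negative ones. Sums in GFP-positive and GFP-negative spleen arrays were 2230 to 2489 and 8222 to 8569 for pre-B markers, 11731 to 11737 and 21384 to 21469 for plasma cell markers, 2021 to 2042 and 1197 to 1323 for dendritic markers, and 281 to 293 and 228 to 280 for erythroid and megakaryocyte markers. The part of other cells in the spleen differences was not tested.

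Fcrla had the largest spleen difference of the 9 genes, and its 3 probe sets gave nearly the same value. Fcrla 1425802_a_at had 1343 and 1422 in GFP-positive spleen cells, against 6666 and 6993 in GFP-negative ones. Fcrla 1419908_at had 1076 and 1018, against 5454 and 4979, a 4.98-fold lower level (-2.32 ± 0.10, adjusted p = 3.61e-07). Fcrla 1419907_s_at had 644 and 594, against 3472 and 2959.7, and differed by -2.37 ± 0.13 (adjusted p = 1.21e-06). On each probe set the GFP-positive arrays were far below the GFP-negative ones.

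Cd72 was 2.1-fold lower in GFP-positive spleen cells, at 3464 and 3492, against 7370.0 and 7214 in GFP-negative ones (-1.07 ± 0.054, adjusted p = 7.2e-07). Cd79a had 7988 and 7960.4, against 10698 and 10896 (-0.44 ± 0.029, adjusted p = 3.15e-06). All 3 probe sets of Cd24a were lower, by differences of -0.45, -0.55 and -0.57. The brightest of them, 1437502_x_at, had 9578 and 8837 in GFP-positive spleen cells, against 12628 and 12580.4 in GFP-negative ones.

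Cd22 went the other way. Cd22 1419769_at had 3320.2 and 3447 in GFP-positive spleen cells, against 1490.3 and 1618 in GFP-negative ones, a 2.18-fold higher level (1.12 ± 0.12, adjusted p = 4.14e-05). Cd22 1419768_at had 6704 and 5555, against 4905 and 4716, and differed by 0.34 ± 0.094 (adjusted p = 0.00972). That smaller call was lost without GFP-positive replicate 1 (0.21, adjusted p = 0.0767) and without GFP-negative replicate 2 (0.31, adjusted p = 0.0521). The value on 1419768_at also lies nearer the overall spleen median of 0.17 than that on 1419769_at does.

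Ms4a1 gave no call in spleen on either probe set. Ms4a1 1423226_at had 7201 and 6511 in GFP-positive spleen cells, against 6968 and 6574 in GFP-negative ones, with a 95% interval of -0.24 to 0.27. Ms4a1 1450912_at had 7560.3 and 7192, against 8004 and 8011, with an interval of -0.53 to 0.29. Changes of the size seen in BCR-ABL1 cells lie outside both intervals.

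The tetraspanins were mixed, and 2 of them gave different answers by probe set. Cd53 1448617_at had 9559 and 8702 in GFP-positive spleen cells, against 11654 and 10816 in GFP-negative ones (-0.30 ± 0.052, adjusted p = 0.000894). Cd53 1459744_at had 309.5 and 254, against 102 and 81.1, a 3.09-fold higher level (1.63 ± 0.17, adjusted p = 4.4e-05). The 2 probe sets of Cd53 correlated at -0.65 over the 8 arrays, so no single direction can be given for that gene.

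Cd37 1425736_at had 376 and 414 in GFP-positive spleen cells, against 802 and 659.5 in GFP-negative ones (-0.88 ± 0.16, adjusted p = 0.00101), but the difference was -0.35 on the deposited scale (adjusted p = 0.0913). Cd37 1419206_at had 7160.5 and 7390.4, against 7169 and 7831, which overlap (adjusted p = 0.41). The 2 probe sets of Cd37 correlated at -0.089. Cd81 had 5837 and 5511, against 5094 and 5150.2 (0.15 ± 0.045, adjusted p = 0.0161), a value just under the overall spleen median, and its call was lost without GFP-positive replicate 1 (adjusted p = 0.0934) and without GFP-negative replicate 1 (adjusted p = 0.0683).

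**Figure D4:**
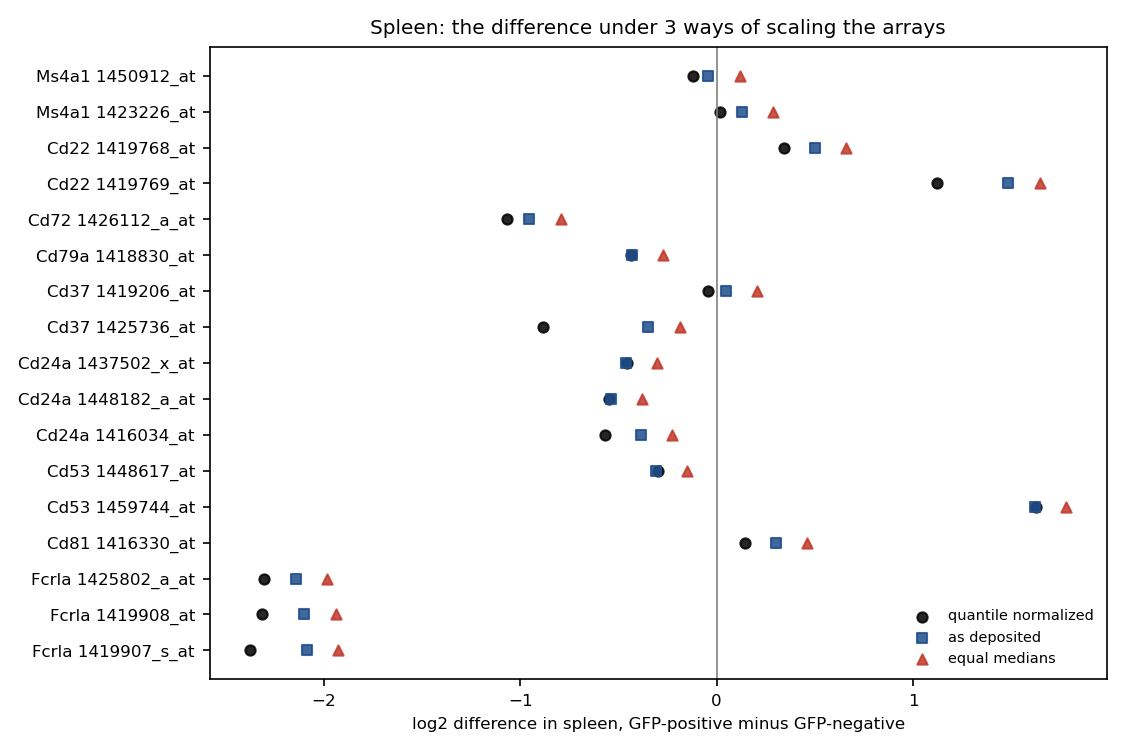
Difference between GFP-positive and GFP-negative spleen cells (log2) of the 17 probe sets under quantile normalization, with deposited values left as they are, and with arrays shifted to equal medians. The points of Fcrla, Cd72 and Cd24a stay left of 0 and those of Cd22 right of it, while those of Cd37 1419206_at and of both Ms4a1 probe sets lie close to 0, on either side of it for Cd37 1419206_at and Ms4a1 1450912_at.

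The 5 lists changed widely in spleen, where 45.6% of all genes were called higher and 31.3% lower. Of the receptor complex and signalling genes, 1 was higher and 9 lower in GFP-positive spleen cells, led by the complement receptor gene Cr2 (-2.65 ± 0.12), with Pik3ap1, the adaptor BCAP, as the higher one (1.3 ± 0.20). Of 8 inhibitory and Fc receptors, 5 were lower, among them Cd5 (-4.06 ± 0.18), which T cells also express. Of 17 other tetraspanins, 9 were higher and 7 lower, with Tspan4 at 2.57 ± 0.16 and Tspan8 at -3.86 ± 0.13. Of 7 other MS4A genes, 6 were lower, with Ms4a4b, a gene of T cells, at -6.28 ± 0.13. Of 10 ligands and partners, 2 were higher and 7 lower, and Ifitm1 was at -4.97 ± 0.12. The myeloid and T cell marker sums given above also differed between these arrays, and their part in the list counts was not tested.

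The GFP effect differed between BCR-ABL1 cells and spleen for 15 of the 17 probe sets, from 8 of the 9 genes, beside 69.8% of all tested probe sets. Of these 15, 10 were positive and 5 negative, beside 29.5% and 40.3% of all, and the split was 8 positive and 6 negative on the deposited scale and 7 and 7 with equal medians. Among the calls of all tested probe sets, 42.3% were positive, 33.9% on the deposited scale and 28.4% with equal medians. The difference of effects (BCR-ABL1 minus spleen) was negative for Ms4a1, at -3.61 ± 0.25 and -3.11 ± 0.16, and for Cd22, at -2.12 ± 0.13 and -2.34 ± 0.17. The Ms4a1 values take in GFP-positive BCR-ABL1 readings near the floor, and the smallest sizes under the alternatives were -2.84 and -2.41. The difference of effects was positive for the 3 Fcrla probe sets, at 1.88 to 2.2, and for Cd72 at 0.42 ± 0.076, where both effects were negative and the spleen one larger. Cd79a, Cd24a and Cd53 1448617_at had positive differences of 0.34 to 0.47, and Cd37 1425736_at had 0.90. The difference of Cd53 1459744_at was negative, at -1.12. Cd81 (-0.13 ± 0.063, adjusted p = 0.108) and Cd37 1419206_at (0.080 ± 0.064, adjusted p = 0.293) were the probe sets without a call. Cd81 was called on the deposited scale (-0.29, adjusted p = 0.00394) and with equal medians (-0.44, adjusted p = 0.00053).

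Between sources, BCR-ABL1 cells had less Ms4a1, Cd22, Fcrla and Cd72 than spleen cells in both GFP classes. In GFP-positive arrays 15 of the 17 probe sets were called, 6 higher and 9 lower, beside 22.4% of all tested probe sets called higher, 21.6% called lower and 44% in either direction. In GFP-negative arrays 13 were called, 3 higher and 10 lower, beside 45.5% called higher, 33.4% called lower and 78.9% in either direction. With equal medians, 16 were called in this pair, 7 higher and 9 lower, with Cd79a, Cd37 1419206_at and 2 Cd24a probe sets gaining calls and Cd37 1425736_at losing its own. Under that setting 81.2% of all tested probe sets were called in this pair, and 70.6% of those calls were higher. BCR-ABL1 and splenic cells differed in tissue, transformation and stimulation together, and these cannot be told apart.

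Ms4a1 1423226_at was lower in GFP-positive BCR-ABL1 cells than in GFP-positive spleen cells by a difference of -7.36 ± 0.11. With a floor of 64 the difference was -6.74, a lower bound on the size, since the BCR-ABL1 readings lay under that floor. In the GFP-negative pair Ms4a1 1423226_at was 19-fold lower (-4.25 ± 0.11). Its order of levels was therefore the 2 spleen groups, which were not told apart by the test, then GFP-negative and then GFP-positive BCR-ABL1 cells. Cd22 1419769_at was 42.5-fold lower in GFP-positive BCR-ABL1 cells than in GFP-positive spleen cells and 8.39-fold lower in the GFP-negative pair. Of the 4 groups, GFP-positive spleen was highest and GFP-positive BCR-ABL1 cells lowest on this probe set.

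Fcrla 1419908_at was 4.15-fold lower in GFP-positive BCR-ABL1 cells than in GFP-positive spleen cells (-2.05 ± 0.10) and 16.5-fold lower in the GFP-negative pair (-4.04 ± 0.10). GFP-negative spleen was highest and GFP-positive spleen next, and the 2 BCR-ABL1 groups were not told apart. Cd72 was 2.91-fold lower in the GFP-positive and 3.9-fold lower in the GFP-negative pair, with GFP-negative spleen on top.

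Cd24a was higher in GFP-positive BCR-ABL1 cells than in GFP-positive spleen cells on all 3 probe sets, and so was Cd79a by a smaller amount. Cd79a differed by 0.38 ± 0.029 between GFP-positive BCR-ABL1 and spleen cells and by 0.012 ± 0.029 between the GFP-negative groups (adjusted p = 0.714). GFP-positive spleen was thus the low group of Cd79a, and the other groups were not told apart by the tests run. The 3 Cd24a probe sets differed by 0.47, 0.56 and 0.75 in the GFP-positive pair, and by 0.091, 0.091 and 0.41 in the GFP-negative pair, where 1416034_at alone was called.

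Cd81 was higher in BCR-ABL1 cells in both pairs, by 0.24 ± 0.045 in the GFP-positive and 0.36 ± 0.045 in the GFP-negative pair. Cd53 1448617_at was lower in BCR-ABL1 cells, by -0.16 ± 0.052 (adjusted p = 0.0352, a call lost in 9 of 20 alternatives) and -0.58 ± 0.052 in the same order, while 1459744_at gave -0.076 ± 0.17 and 1.05 ± 0.17. Cd37 1419206_at differed by 0.14 ± 0.045 (adjusted p = 0.0383) in the GFP-positive pair, a call that was lost in 11 of 20 alternatives, and by 0.059 ± 0.045 in the GFP-negative pair. Cd37 1425736_at was lower by -0.66 ± 0.16 in the GFP-negative pair and was not called in the GFP-positive one (0.24 ± 0.16).

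**Figure D5:**
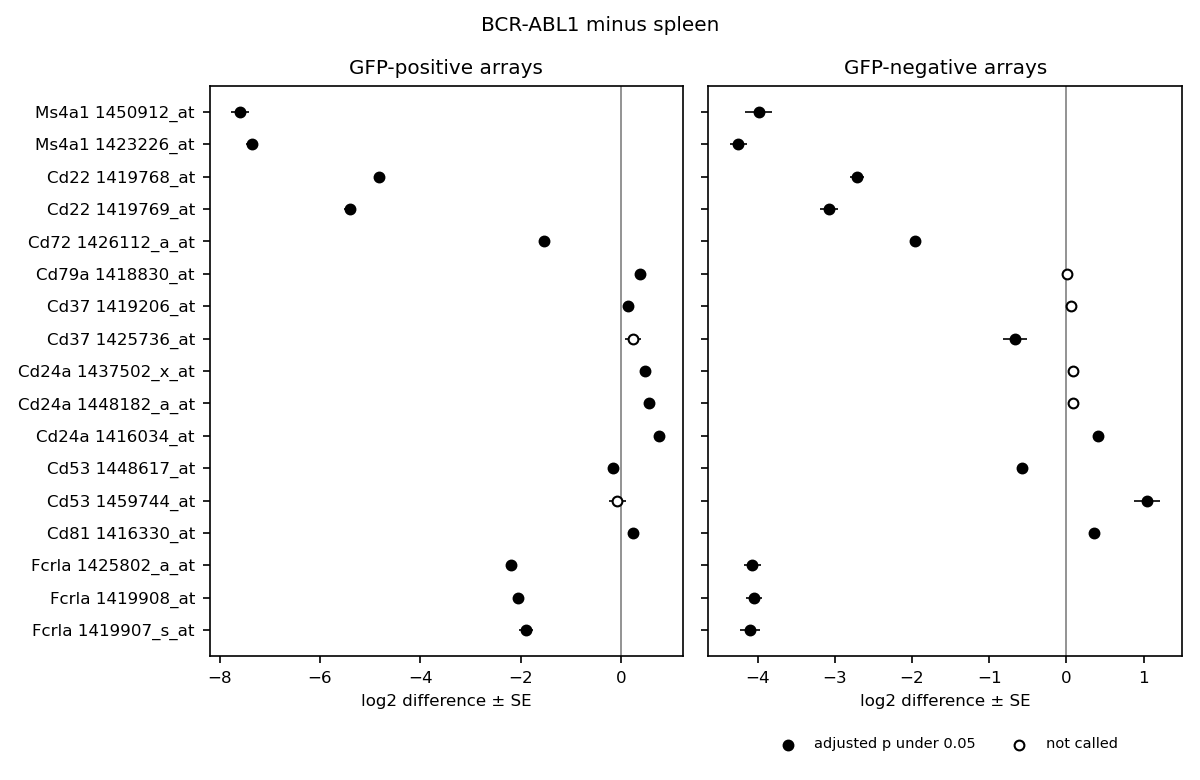
Difference between BCR-ABL1 and spleen arrays (log2, ± standard error, 2 arrays a group) of the 17 probe sets, for GFP-positive and for GFP-negative arrays, on axes of different range. Ms4a1, Cd22, Fcrla and Cd72 lie left of 0 in both panels, and the other points lie within about 1 of it.

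Probe sets of a gene rose and fell together over the 8 arrays for Ms4a1 (Pearson r = 0.996), Cd22 (0.984), Fcrla (0.997 to 0.999) and Cd24a (0.937 to 0.998), which Cd37 and Cd53 did not do. Across genes, Ms4a1 1423226_at and Cd22 1419768_at correlated at 0.997. Over 8 arrays in 4 groups, such values mostly set 4 group means against each other, and the arrays share their normalization.

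Of the genes outside these 9, those most like Ms4a1 1450912_at over the 8 arrays were Ly86 (r = 0.997), H2-Ab1 (0.996) and Polm (0.996). Ly86, which encodes MD-1, had mean signals of 187 in GFP-positive and 1115 in GFP-negative BCR-ABL1 cells, and 7430.3 in GFP-positive and 6679 in GFP-negative spleen cells. H2-Ab1, a chain of MHC class II, had 457 and 1733 in the BCR-ABL1 groups and 12141 and 11471 in the spleen groups, in the same order. H2-Ab1 was also the gene most like Cd22 1419768_at (0.998), followed by Adam19 (0.997) and Ehbp1 (0.993).

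The nearest genes to Fcrla were Il6ra, Tent5a and Zyx (0.997 to 0.998), those to Cd72 were Klf3, Hpcal1 and Ptms (0.994 to 0.998), and those to Cd79a were Bin1, Hba-a2 and Acsf2 (0.993 each). Cd24a was most like Ctcf, Prkce and Pik3c2a (0.986 to 0.993), Cd53 1448617_at like Mir22hg, Ndst2 and Arhgap26 (0.988 to 0.990), Cd81 like Nup210, Zfp983 and Set (0.988 to 0.990), and Cd37 1419206_at like Mrgpre, Rbm41 and Stk16 (0.969 to 0.970). The highest value for Cd37 was below those of the other 8 genes.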

How the data were processed

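Total RNA of 8 samples in 4 groups of 2 was hybridised to Affymetrix arrays. The deposited table holds linear signal intensities, which were made with GCOS 1.3 per the submitters' processing notes. The sources used here do not say how probes were summarised or arrays scaled. The members and gene lists were chosen with earlier results of these data known. After 64 control probe sets were left out, arrays were quantile normalized, since trimmed means (2% trimmed) differed by a ratio of up to 1.24. Signals under 32 were set to 32 and log2 transformed, and probe sets whose mean fell below a signal of 51.0 (the 40th percentile) were left out. 1 mean per group was fitted with limma 3.58.1 (R 4.3.3, lmFit, eBayes with a trend), which left 4 residual degrees of freedom. The Benjamini-Hochberg adjustment ran over 27022 probe sets, and the fit was tested on simulated data. Every probe set with a single member symbol was named. Other genes were named from 5 gene lists (up to 4 called genes a comparison, with Cd79b as the partner of Cd79a added after its value was seen), or as the 3 genes with the highest Pearson r to a member's brightest probe set. Single marker genes of other cell types were named after their values were seen. Gene symbols are those of the platform annotation, which gave 34945 probe sets 1 symbol, 932 several and 9160 none. Other normalizations, floors, filters, gene summaries, a replicate block and leaving out each array were tried as alternatives. The number of arrays limits the precision.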

Additional observations from a re-analysis of the deposited data

Results flagged for a closer look

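For 15 of the 17 probe sets the GFP effect in BCR-ABL1 cells differed from that in spleen by the test of the difference itself (limma, BCR-ABL1 effect minus spleen effect, log2), which was the case for 69.8% of all tested probe sets. The values were -3.61 for Ms4a1 1450912_at, -3.11 for Ms4a1 1423226_at, -2.12 for Cd22 1419768_at and -2.34 for Cd22 1419769_at. For Fcrla they were 1.88 on 1425802_a_at, 1.99 on 1419908_at and 2.2 on 1419907_s_at. Cd72 1426112_a_at had 0.423 and Cd79a 1418830_at had 0.365. The Cd24a values were 0.374 on 1437502_x_at, 0.47 on 1448182_a_at and 0.342 on 1416034_at. Cd37 1425736_at had 0.903, and the Cd53 probe sets had 0.412 on 1448617_at and -1.12 on 1459744_at. Each value shares its spleen side with the marker sums given in the report, and their part in it was not tested. The Ms4a1 values also take in BCR-ABL1 readings near the floor, and their smallest sizes under the alternatives were -2.84 and -2.41.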

How the results depend on the processing

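Of 1603 values of single probe sets or genes under the alternatives, 1547 kept their direction and their side of the threshold, 34 lost a call, 15 gained one and 7 reversed. With arrays shifted to equal medians, the Cd37 1419206_at spleen effect was 0.21 and its difference of effects -0.17, and Cd37 1425736_at between the GFP-negative groups was 0.027. With a gene's probe sets averaged, an alternative chosen after seeing the data, Cd53 was at 0.66 in spleen, -0.36 for the difference of effects and 0.24 between the GFP-negative groups, and Cd37 at -0.30 between the GFP-negative groups. These 4 reversals follow from joining probe sets that disagree, and the cause of the others was not tested. Counts of genes called, of 9, were 3, 7, 7, 9 and 6 with the brightest probe set per gene and 3, 8, 8, 7 and 7 with the mean, for BCR-ABL1 cells, spleen, the difference of effects, and BCR-ABL1 against spleen in GFP-positive and in GFP-negative arrays. Of all 12223 genes, 656, 9426, 8439, 6149 and 9589 were called in the same order with the brightest probe set. With the mean, 651, 9581, 8651, 6060 and 9812 were called. Called probe sets of the 17 numbered 5 in BCR-ABL1 cells without any 1 array, 12 to 14 in spleen, 15 to 16 for the difference, 13 to 15 in the GFP-positive and 13 to 14 in the GFP-negative pair. The 756 calls among all probe sets in BCR-ABL1 cells became 197 to 1091 without 1 array (197 and 214 without GFP-positive replicates 1 and 2 and 225 and 262 without GFP-negative replicates 1 and 2 of BCR-ABL1, 502 to 503 without a spleen GFP-positive array) and 270 with the 4 arrays of the contrast alone. The difference of effects was not called for Cd72 with equal medians (0.20, adjusted p = 0.0589), nor for Cd24a 1416034_at and Cd37 1425736_at on the deposited scale and with equal medians (adjusted p 0.0851 to 0.922). The share of higher among all spleen calls was 57.4%, 65.2% on the deposited scale and 71.1% with equal medians. Replicate numbers were shared between groups but deviations of same-numbered arrays correlated at 0.11 in BCR-ABL1 cells and 0.27 in spleen. With the replicate block, 6 probe sets were called in BCR-ABL1 cells (Cd24a 1416034_at added, adjusted p = 0.0296) and 15 in the GFP-negative pair, and the other counts did not change. Of all tested probe sets, 2.77% and 81.7% were called in these comparisons with the block.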
